A study of Homo sapiens with 9 samples.

Results

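The insulin-like growth factor (IGF) genes described here are the 7 IGF-binding proteins IGFBP1 to IGFBP7, the receptors IGF1R and IGF2R, and the ligand IGF2. They were taken by gene name from a table of 58735 genes, where 11 rows carry the 10 names because IGF2 is listed under 2 identifiers. A filter on low values passed 7 of them, among 13912 genes tested in all; IGFBP2, IGFBP5 and IGF2 did not pass. The cells were of the established breast cancer line MDA-MB-231, which lacks oestrogen receptor, labelled wild type and grown in DMEM with serum in all groups. Group No CM received medium alone. Group Cont CM received conditioned medium taken from cultures of the line that were not senescent. Group TIS CM received conditioned medium from cultures of the line that nocodazole, a microtubule poison (100 ng/ml for 72 h), had driven into senescence. The same line therefore made the conditioned media and was the recipient, and only the recipient cells were profiled. Each group held 3 libraries of poly(A) RNA, and the exposure is given as 72 h in the sample labels and as 48 h in the design text. Nothing states that the libraries came from separate cultures, so p-values here reflect only how much these libraries vary, and that variation may be technical.

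IGF-I and IGF-II are secreted growth factors related to insulin. IGF1R is the tyrosine kinase through which they drive growth and survival, while IGF2R, also the cation-independent mannose 6-phosphate receptor, takes IGF-II to the lysosome and carries lysosomal enzymes there. The IGF-binding proteins are secreted, hold IGFs with high affinity (IGFBP7 with low affinity) and are cut by extracellular proteases that free the ligand. In breast cancer cells and in the secretions of senescent cells, several of these binding proteins are known components.

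Values are FPKM, fragment counts divided by the length of the gene and the size of the library, a scale on which levels of different genes can be set side by side. Between 32636708 and 39189036 fragments per library stood behind them, and 22637 to 23295 genes were above 0. All 6 genes listed as typical of this line passed the filter, with a summed level of 1603 to 1724 FPKM in No CM, 1495 to 1539.8 in Cont CM and 1619 to 1654 in TIS CM. Within that list S100A4 was lower (519 to 347 FPKM, limma adjusted p = 0.00376) and FN1 higher (14.5 to 19.3 FPKM, 0.0233) in Cont CM than in No CM. Of 5 genes listed as low in this line, 3 passed the filter, ERBB2 and EPCAM at group means of 8.27 to 9.23 FPKM and CDH1 at 1.17, 0.299 and 0.438 FPKM in No CM, Cont CM and TIS CM (limma adjusted p = 0.000584 and 0.0226 for Cont CM and TIS CM against No CM). The part of these marker differences in the results for the IGF genes was not tested. Of markers of other cells, 0 of 5 immune, 0 of 4 endothelial and 0 of 3 hepatocyte genes reached a mean of 0.5 FPKM, and of 5 fibroblast genes 1, PDGFRB, did. In such bulk RNA, fewer cells expressing a gene and less RNA per cell cannot be told apart.

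IGFBP4 and IGF2R frame the results, IGFBP4 with the widest range of group means among the 7 tested members and IGF2R with the narrowest, and the 250 bases before their RefSeq start sites (GRCh38.p14, plus strand for both) are shown for that reason. Capitals mark the TATA motif TATAAA, the GC box GGGCGG, the forkhead motifs GTAAACA or CAAAACA, the hypoxia-response core ACGTG and the E-box CACGTG, searched on both strands, so that CCGCCC is a GC box read on the other strand and each CACGTG holds ACGTG on both strands. The windows are chr17:40443200-40443449 for IGFBP4 and chr6:159968832-159969081 for IGF2R.
IGFBP4: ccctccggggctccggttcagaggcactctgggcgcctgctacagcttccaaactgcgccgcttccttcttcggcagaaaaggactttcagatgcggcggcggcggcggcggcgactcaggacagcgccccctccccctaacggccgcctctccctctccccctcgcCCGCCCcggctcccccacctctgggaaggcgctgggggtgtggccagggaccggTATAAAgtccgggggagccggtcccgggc
IGF2R: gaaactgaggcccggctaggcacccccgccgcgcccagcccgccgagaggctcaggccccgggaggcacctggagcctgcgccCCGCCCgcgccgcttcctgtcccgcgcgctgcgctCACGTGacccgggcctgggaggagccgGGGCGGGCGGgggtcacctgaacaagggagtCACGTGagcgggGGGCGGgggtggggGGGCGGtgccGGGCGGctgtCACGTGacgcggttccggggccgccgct
The IGFBP4 window holds 1 TATAAA, a motif found in 10.7% of 35116 RefSeq promoter windows of this length, with its last base 24 bases before the start site, and 1 GC box. In the IGF2R window there is no TATAAA, but there are 6 GC boxes, of which a pair overlap, and 3 CACGTG motifs. GC boxes occur in 42.6% and CACGTG in 6.35% of all windows, and neither window holds either forkhead motif. Their GC content was 71.6% and 79.2%, against a median of 58% over all windows. A match is a description of these letters and not a binding site. RefSeq entries were matched for 7 of the 10 names, all but IGFBP1, IGFBP7 and IGF2.

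Neither ligand gene gave a level that could be compared between groups. IGF2 (chromosome 11, 2129112 to 2149603, ENSG00000167244) had 0 fragments in 8 libraries and 5 in Cont CM replicate 3, and its other row (ENSG00000284779, 2129112 to 2158658) had 0 in all 9. These rows lie on top of each other over 20492 bases and also overlap INS-IGF2 on the same strand; the sources used here do not give whether fragments in shared bases were counted for either, so a level of IGF2 cannot be read from them. IGF1, the other ligand, had 0 fragments in every library, which allows up to 0.0112 FPKM at the floor of 3 fragments per library. IGFALS, which holds IGFs in a circulating complex with binding proteins, had 4 fragments over all 9 libraries. These floors, like all counts here, cover counting error only.

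Both receptors were expressed, at levels that differed little between the groups. IGF2R (chromosome 6, 159969099 to 160113507) was at 16.4, 14.5 and 15.5 FPKM in the No CM libraries, at 15.6, 15.8 and 15.6 in Cont CM, and at 14.5, 15.2 and 14.6 in TIS CM. All TIS CM libraries lay below all Cont CM libraries, while No CM spanned both. The gap between TIS CM and Cont CM was a log2 difference of -0.08 (95% interval -0.19 to 0.02), which limma did not call (adjusted p = 0.329). IGF1R (chromosome 15, 98648539 to 98964530) was the lowest of the tested members, at 2.21, 2.13 and 2.10 FPKM for No CM, 2.63, 2.08 and 2.35 in Cont CM, and 2.07, 2.11 and 2.25 in TIS CM. The groups overlapped, with Cont CM replicate 1 highest of all libraries. Its log2 difference was 0.11 for Cont CM against No CM (-0.07 to 0.28) and -0.00 for TIS CM against No CM (-0.18 to 0.17). These intervals leave out changes of IGF1R beyond 1.21-fold upward after Cont CM and 1.13-fold upward after TIS CM. INSR, the insulin receptor that can pair with IGF1R in hybrid receptors, had 3.29 ± 0.176, 2.90 ± 0.329 and 3.10 ± 0.0592 FPKM (mean ± SD, n = 3) in No CM, Cont CM and TIS CM, and was called in no comparison (limma adjusted p = 0.183, 0.727 and 0.537 for Cont CM against No CM, TIS CM against No CM and TIS CM against Cont CM).

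The binding proteins covered a wide span of levels, with IGFBP4 far above the rest. IGFBP4 (chromosome 17, 40443461 to 40457731), a soluble inhibitor of IGF action that the protease PAPPA cuts, ranked 34 of the 13912 tested genes by mean FPKM. Its level was 713, 633 and 703 FPKM in the No CM libraries, 332, 434 and 506 in Cont CM, and 658, 645 and 585 in TIS CM. Every Cont CM library lay below every library of the other groups, and No CM and TIS CM overlapped. The group means were 683 ± 43.8, 424 ± 87.5 and 629.5 ± 39.0 FPKM (SD, n = 3). Relative to No CM, IGFBP4 was 1.63-fold lower in Cont CM (log2 difference -0.71, SE 0.13, 95% interval -1.01 to -0.41, limma adjusted p = 0.00871). In TIS CM it was 1.5-fold higher than in Cont CM (0.59, SE 0.13, 0.29 to 0.89, limma adjusted p = 0.0435), a call that was lost in 11 of the 20 alternatives tried. TIS CM against No CM gave -0.12 (-0.42 to 0.18, limma adjusted p = 0.763). These comparisons share libraries, so the drop in Cont CM and the difference between Cont CM and TIS CM rest on the same 3 Cont CM libraries.

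IGFBP6 (chromosome 12, 53097436 to 53102345), which prefers IGF-II over IGF-I, was lower than in plain medium in both conditioned media. The No CM libraries held 58.9, 61.8 and 73.3 FPKM, Cont CM 46.5, 39.8 and 41.4, and TIS CM 45.8, 52.6 and 46.3. No conditioned-medium library reached the lowest No CM library, and Cont CM and TIS CM overlapped. With group means of 64.7 ± 7.66, 42.5 ± 3.50 and 48.2 ± 3.76 FPKM, IGFBP6 was 1.51-fold lower with Cont CM than with No CM (log2 difference -0.60, SE 0.09, -0.80 to -0.39, limma adjusted p = 0.00361). The difference of TIS CM from No CM, 1.33-fold lower (-0.42, SE 0.09, -0.62 to -0.21), missed the threshold after adjustment (limma adjusted p = 0.0912). It passed with voom on whole fragments (adjusted p = 0.0191), with only protein-coding genes in the fit (0.0354), with the GC and length trend removed (0.0334) and without Cont CM replicate 1 (0.0415); over all 20 alternatives the adjusted p ran from 0.0191 to 0.288. TIS CM against Cont CM gave 0.18 (-0.03 to 0.39, adjusted p = 0.274).

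IGFBP7 (chromosome 4, 57030773 to 57110385), a low-affinity binder secreted into the matrix, was the second most abundant binding protein. It was at 108, 97.8 and 105 FPKM in No CM, 79.5, 103 and 102 in Cont CM, and 119, 108 and 99.2 in TIS CM. All 3 groups overlapped, and Cont CM replicate 1 was the lowest library. The log2 differences were -0.13 for Cont CM against No CM (-0.37 to 0.10), 0.07 for TIS CM against No CM (-0.16 to 0.30) and 0.20 for TIS CM against Cont CM (-0.03 to 0.44), with limma adjusted p of 0.436, 0.830 and 0.279. On the opposite strand, IGFBP7-AS1 shares 624 bases and POLR2B 396 bases with the gene. IGFBP7-AS1 had 12.0 ± 2.04, 10.5 ± 1.13 and 12.1 ± 0.412 FPKM in No CM, Cont CM and TIS CM. The sources used here do not give whether strand entered the counting; without it, reads in the bases that IGFBP7 shares with IGFBP7-AS1 and with POLR2B (mean 42.9 FPKM) cannot be told apart. The same holds for the bases that IGF1R shares with AC036108.1, which lay at a mean of 0.444 FPKM.

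IGFBP3 and IGFBP1 are neighbours on chromosome 7, with 18576 bases between them, and both were expressed at a similar level. IGFBP3 (45912245 to 45921874), the main carrier of IGFs in blood, was at 16.5, 15.1 and 15.9 FPKM in No CM, 12.3, 16.6 and 15.3 in Cont CM, and 15.4, 14.3 and 13.9 in TIS CM. The lowest and the highest of the 9 values were both Cont CM libraries. IGFBP1 (45888357 to 45893668), a binding protein that insulin represses in liver, was at 11.6, 13.8 and 11.3 FPKM in No CM, 11.8, 13.1 and 13.5 in Cont CM, and 13.9, 13.4 and 14.1 in TIS CM. TIS CM replicates 1 and 3 lay above every No CM and Cont CM library. Against No CM, IGFBP3 gave log2 differences of -0.11 in Cont CM (-0.33 to 0.10) and -0.12 in TIS CM (-0.34 to 0.09). IGFBP1 gave 0.07 in Cont CM (-0.10 to 0.24) and 0.17 in TIS CM (0.00 to 0.35, limma adjusted p = 0.357). Between TIS CM and Cont CM the differences were -0.01 for IGFBP3 (-0.23 to 0.21) and 0.11 for IGFBP1 (-0.06 to 0.28), and none of these 6 was called.

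The other neighbouring pair, IGFBP2 and IGFBP5 on chromosome 2 with 7668 bases between them, was near 0. IGFBP2 (216632828 to 216664436) had 18 fragments over the 9 libraries, 0 to 7 in each, and IGFBP5 (216672105 to 216695525) had 8, 0 to 2 in each. Their highest FPKM values were 0.0406 and 0.00904, and no comparison was made. IGFBP3 and IGFBP1 were both expressed, while IGFBP2 and IGFBP5 were too low for their levels to be compared with each other.

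**Figure D1:**
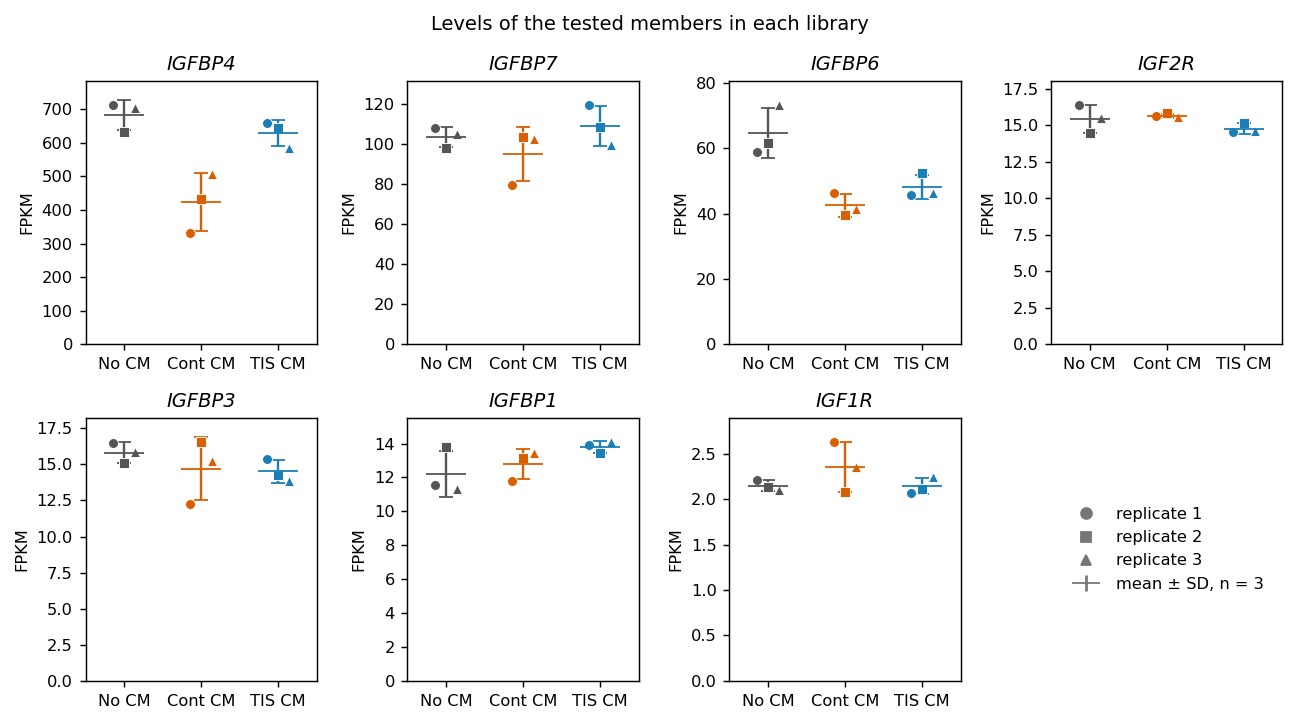
FPKM of the 7 tested members in each library (points; linear axes from 0, with a scale of its own in each panel) with the group mean and SD (n = 3) for No CM, Cont CM and TIS CM. The Cont CM libraries of IGFBP4, 332 to 506 FPKM, lie below all others, and the No CM libraries of IGFBP6, 58.9 to 73.3 FPKM, lie above all others.

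Ordered by mean FPKM, the tested members ran IGFBP4, IGFBP7, IGFBP6, then IGF2R, IGFBP3 and IGFBP1, then IGF1R. IGF2R and IGFBP3 were not separated, since IGF2R was the higher in 4 of the 9 libraries, and IGFBP3 exceeded IGFBP1 in 8 of 9. The other neighbours in this order did not overlap in any library.

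The IGFBP4 differences carried over to the pool of binding-protein transcripts. Summed over the 7 IGFBP genes, the level was 908, 821 and 908 FPKM in No CM, 482, 607 and 679 in Cont CM, and 853, 834 and 759 in TIS CM. Every Cont CM library was below all others. The share of IGFBP4 in this sum was 77.7% ± 0.791 without conditioned medium, 71.7% ± 2.86 with Cont CM and 77.2% ± 0.146 with TIS CM (mean ± SD, n = 3). The 6 other binding proteins together gave 196 ± 8.62, 165 ± 13.1 and 185 ± 10.8 FPKM. Most of the lower total in Cont CM was therefore IGFBP4, by this sum. No test was made on it, because IGFBP4 itself was tested.

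**Figure D2:**
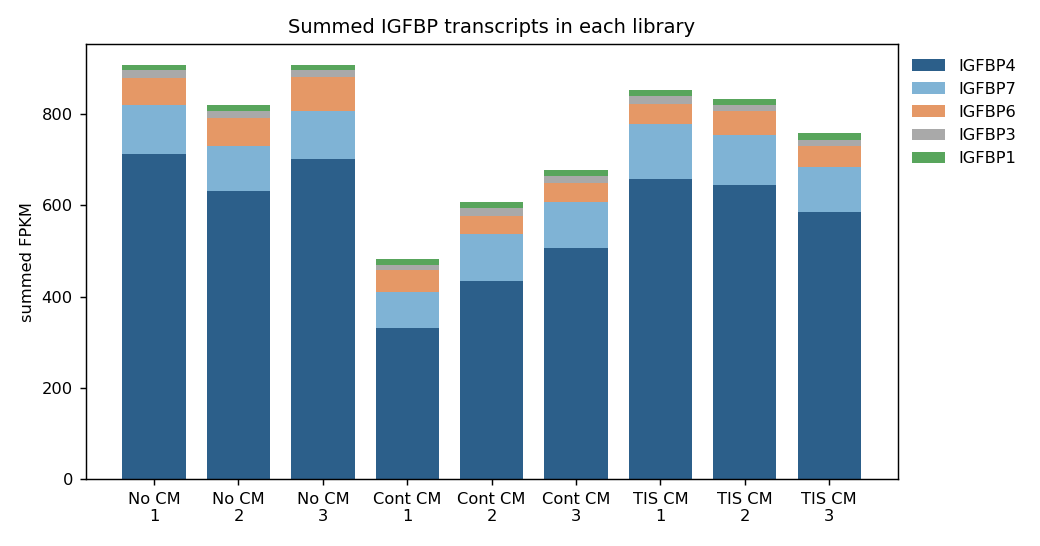
Summed FPKM of the 7 IGFBP genes in each of the 9 libraries, stacked by gene (IGFBP2 and IGFBP5, near 0, are not visible). The Cont CM bars stand at 482 to 679 FPKM and those of the other groups at 759 to 908.

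Counted over the members, 2 of the 7 tested (IGFBP4 and IGFBP6) fell and 0 rose in Cont CM against No CM, beside 8.56% lower, 7.77% higher and 16.3% called in all among the tested genes. Both had groups that did not overlap, as did 33.3% of all genes. The median log2 difference of the 7 was -0.11, and that of all tested genes -0.00. For TIS CM against No CM limma called 0 of 7, beside 0.403% higher, 0.453% lower and 0.855% called in all. Voom called 1 of 7, beside 245 of the 13912 tested genes. At an unadjusted p under 0.05 there were 2 of 7 (IGFBP6 and IGFBP1), with no share of all genes to set beside them. IGFBP6 alone had groups that did not overlap, as did 24.4% of all genes, and the median of the 7 was -0.06. Of the 7, relative to Cont CM, 1 rose in TIS CM, IGFBP4, beside 2.9% higher, 1.57% lower and 4.48% called in all. Groups did not overlap for IGFBP4 and IGF2R, as for 28.6% of all genes, and the median was 0.11. No statement on the set as a whole follows from 7 genes at these shares.

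**Figure D3:**
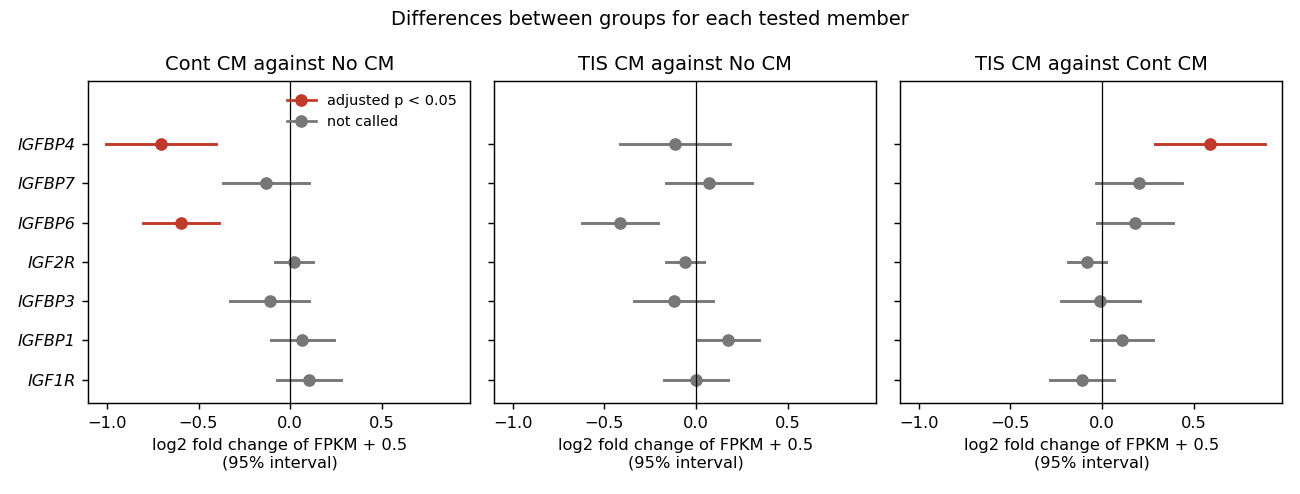
Log2 fold change of each tested member with its 95% interval from limma, for the 3 comparisons; red marks have an adjusted p under 0.05. IGFBP4 and IGFBP6 stand at -0.71 and -0.60 in Cont CM against No CM, and IGFBP4 stands at 0.59 in TIS CM against Cont CM.

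The calls of IGFBP4 and IGFBP6 in Cont CM against No CM held in all 20 alternatives, which were 11 other settings and 9 omissions of 1 library. IGFBP4 ranged from -0.84 to -0.54 (adjusted p 0.000542 to 0.0371) and IGFBP6 from -0.66 to -0.50 (0.000262 to 0.0163). The IGFBP4 call in TIS CM against Cont CM was lost in 11 of the 20, with log2 differences between 0.42 and 0.73. Its limma adjusted p was 0.124 without a filter, 0.102 with only the 2 groups in the fit, 0.0952 with the replicate number as a block, and 0.129 with the GC and length trend removed. Left-out libraries gave 0.0647, 0.0640 and 0.0669 for No CM replicates 1, 2 and 3, 0.0959 for Cont CM replicate 2, and 0.137, 0.129 and 0.1002 for TIS CM replicates 1, 2 and 3. Cont CM replicate 2 was the library whose deviations followed GC content and gene length most, with 17.7% of their variance, against 0.62% to 5.48% in the other 8; IGFBP4 and IGFBP6 have GC contents of 62.5% and 64.2%. With the trend removed their Cont CM against No CM differences were -0.61 and -0.50.

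**Figure D4:**
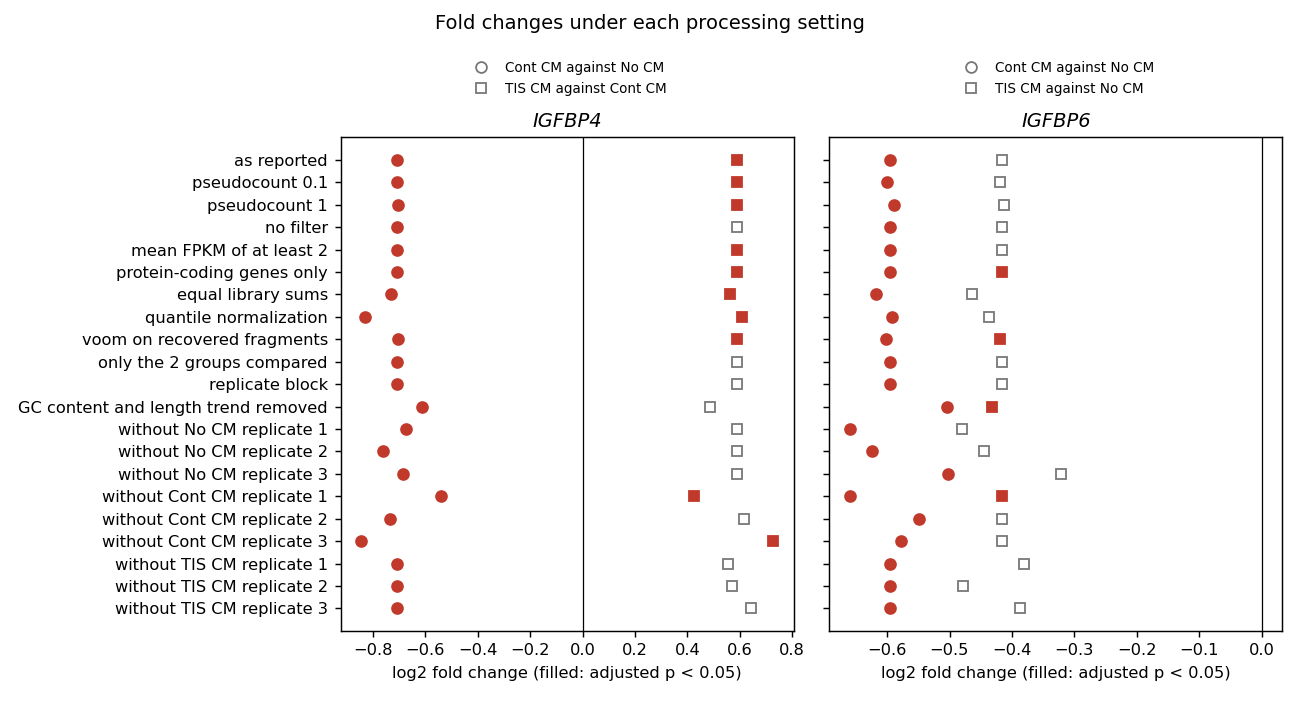
Log2 fold changes of IGFBP4 and IGFBP6 as reported and under each of the 20 alternatives; filled marks have an adjusted p under 0.05. All marks for Cont CM against No CM are filled, while 11 of the 20 alternatives leave the IGFBP4 mark for TIS CM against Cont CM open.

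The genes whose values most resembled these members were found by Pearson's r over the 9 libraries, on log2(FPKM + 0.5), among 10473 protein-coding genes, as a description. Nearest to IGFBP4 were EDIL3, an integrin-binding matrix protein (r = 0.990), the membrane metalloprotease ADAM15 (0.986), BTN3A3, a butyrophilin (0.986), and the surface glycoprotein CD99 (0.985). EDIL3 had 34.9, 27.9 and 33.5 FPKM on average in No CM, Cont CM and TIS CM, a narrower range than that of IGFBP4. Nearest to IGFBP6 were the interferon-induced IFIT3 (0.986), ARHGEF39 (0.986), the acid-sensing channel ASIC1 (0.967) and LBH (0.966), a transcription cofactor. IFIT3 fell from 67.8 FPKM in No CM to 48.0 in Cont CM and stood at 53.8 in TIS CM. For IGFBP7 the nearest were UMAD1 (0.976), STARD8 (0.974), ZDHHC6 (0.971) and the mitochondrial chaperone HSPD1 (0.966). These points share library, depth and group.

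Downstream of IGF1R, a list of 31 genes of receptor signalling had 27 tested, of which 2 rose and 2 fell in Cont CM against No CM (median log2 difference 0.03, all genes -0.00), beside 16.3% called among all tested genes, a share that 4 of 27 does not exceed. PTPN1, a phosphatase that acts on insulin and IGF1 receptors, fell from 57.3 to 49.8 FPKM (log2 difference -0.20, limma adjusted p = 0.00781). The adaptor IRS1, 18.9 to 16.9 FPKM (-0.15, adjusted p = 0.0245), lost its call without Cont CM replicate 2 or 3 or No CM replicate 1 or 3 (0.0534 to 0.0810), with 2 groups in the fit (0.0614) and with the block (0.0681). The lipid kinase subunit PIK3CA, 4.68 to 5.26 FPKM (0.15, 0.0468), lost it in 14 of the 20 alternatives, among them each of the 9 omissions (0.0524 to 0.133). The count was then 2 without Cont CM replicate 2 or 3 or No CM replicate 1 or 3. All tested genes called, 2272 as reported, were 1616, 1708, 1477 and 1075 in those fits. Between TIS CM and No CM limma called 0 of 27, beside 0.855% of all tested genes, and voom called 0. At an unadjusted p under 0.05 there were 4, with no share of all genes to set beside them. In TIS CM against Cont CM limma called 1 of 27, beside 4.48% of all tested genes, and 0 to 1 with 1 library left out. Voom called 3 there, beside 1085 of the 13912 tested genes. At an unadjusted p under 0.05 there were 6, again with no share of all genes to set beside them.

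Proteases that can cut IGF-binding proteins, with their inhibitors, moved in both directions. Of 22 listed genes 16 were tested, and 6 rose and 4 fell in Cont CM against No CM (median -0.01), beside 16.3% called over all tested genes. PLAT, tissue plasminogen activator, rose from 89.7 to 149 FPKM (log2 difference 0.70, limma adjusted p = 0.0105). STC1, an inhibitor of PAPPA, rose from 26.8 to 42.6 FPKM (0.64, 0.0106). The collagenase MMP1 rose from 288 to 531 FPKM (0.82, 0.0284), a call lost without Cont CM replicate 2 or 3 or any 1 of the No CM replicates (0.0592 to 0.0840), without a filter (0.0864), with 2 groups in the fit (0.0756) and with the block (0.0576). The 4 that fell were the aspartic protease CTSD, from 205 to 117 FPKM (-0.82, 0.000379), HTRA3, a secreted serine protease, from 2.61 to 1.2 (-0.88, 0.00187), ADAM28, a metalloprotease that cuts IGFBP3, from 1.12 to 0.476 (-0.73, 0.00196), and BMP1, a procollagen protease, from 8.37 to 6.80 (-0.28, 0.0125; 0.0560 with the GC and length trend removed). PAPPA, the protease of IGFBP4, stayed under the filter at group means of 0.20 to 0.23 FPKM.

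In TIS CM against Cont CM, 3 of the 16 proteases and inhibitors were called, beside 4.48% of all tested genes, and CTSD and HTRA3 rose. CTSD stood at 180 FPKM in TIS CM (0.63, limma adjusted p = 0.00997; 0.0551 and 0.0576 without TIS CM replicate 1 or 2, and 0.0517 with 2 groups in the fit). HTRA3 stood at 2.14 FPKM (0.65, 0.0240), a call lost without Cont CM replicate 2 (0.0515) or any 1 of the TIS CM replicates (0.0757 to 0.0904). The HTRA3 call also ended without a filter (0.0659), with 2 groups in the fit (0.0765), with the block (0.0644) and with the trend removed (0.0942). The count of 3 became 7 without Cont CM replicate 1, 0 without TIS CM replicate 1 or 2, and 1 without TIS CM replicate 3. Calls over all tested genes, 623 as reported, also moved, to 1084 without Cont CM replicate 1. They were 11, 25 and 83 without TIS CM replicates 1, 2 and 3. Relative to No CM, 2 rose in TIS CM, beside 0.403% of all tested genes, among them the urokinase gene PLAU (176 to 219 FPKM, 0.32, 0.0326). That count was 5 without Cont CM replicate 1, where 365 of all tested genes were called, and 1 without Cont CM replicate 3, where 69 were. It was 0 without No CM replicate 1 or 3 or any 1 of the TIS CM replicates, where 9 to 18 were called. Without a filter and with the block it was 0, and with equal library sums PLAU was not called (adjusted p = 0.0600).

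Genes whose proteins carry an IGFBP domain without being classical binding proteins numbered 13, with 9 tested, and 3 rose and 2 fell in Cont CM against No CM, beside the same 16.3%. CYR61 and CTGF, matricellular proteins, rose from 559 to 785 FPKM (log2 difference 0.48, limma adjusted p = 0.00542) and from 107 to 134 FPKM (0.32, 0.0113). ESM1, a secreted proteoglycan, rose from 1.80 to 4.85 FPKM (1.2, 0.000489), while KAZALD1 fell from 2.63 to 1.91 FPKM (-0.38, 0.0101), as did HTRA3, which is also in the protease list. With TIS CM relative to Cont CM ESM1 fell, to 2.76 FPKM (-0.70, 0.0211), and HTRA3 rose. Without Cont CM replicate 2 or any 1 of the TIS CM replicates the count was 0 (ESM1 0.0507 to 0.0848). All tested genes called were then 99 without Cont CM replicate 2, and 11 to 83 without a TIS CM replicate. The list count was also 0 without a filter, with 2 groups in the fit and with the block. Between TIS CM and No CM limma called 0 of 9, beside 0.855% of all tested genes, and voom called 1, beside 245 of 13912. At an unadjusted p under 0.05 there were 5, with no share of all genes to set beside them. The 0.855% is at an adjusted p and is no measure for that count. Without Cont CM replicate 1 the limma count was 2, beside 365 of all tested genes, and without Cont CM replicate 2 it was 1, beside 139.

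Sorting by mannose 6-phosphate is the other task of IGF2R. All 15 listed genes were tested, and 1 was called in Cont CM against No CM and in TIS CM against Cont CM, beside 16.3% and 4.48% of all tested genes. AP1S1, a subunit of the AP-1 clathrin adaptor, fell in Cont CM against No CM from 62.1 to 54.3 FPKM (-0.19, limma adjusted p = 0.00989) and rose in TIS CM against Cont CM to 68.5 FPKM (0.33, 0.00731; 0.0531 without TIS CM replicate 1). The count in Cont CM against No CM was 2 without Cont CM replicate 1, where 2770 of all tested genes were called. For TIS CM against No CM limma called 0 of 15, beside 0.855% of all genes, with 1 at an unadjusted p under 0.05 and 0 by voom. M6PR, the small mannose 6-phosphate receptor, was at 20.3 ± 0.872, 19.7 ± 1.26 and 20.7 ± 0.841 FPKM in No CM, Cont CM and TIS CM and was not called. Of 9 ligands, carriers and regulators of IGF2 messenger RNA only IGF2BP2 and IGF2BP3 were tested. Limma called 0 of 2 in each comparison, where the shares of all tested genes were the 16.3%, 4.48% and 0.855% given above. At an unadjusted p under 0.05 there was 1 in Cont CM against No CM and 0 in both others. Voom called 1 in Cont CM against No CM, beside 2694 of the 13912 tested genes, and 0 in both others. Without Cont CM replicate 1, limma called 1 in Cont CM against No CM, beside 2770 of all tested genes. It then also called 1 in TIS CM against Cont CM, beside 1084. IGF2BP2 had 22.1 ± 0.813, 25.3 ± 2.06 and 23.2 ± 1.00 FPKM.

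**Figure D5:**
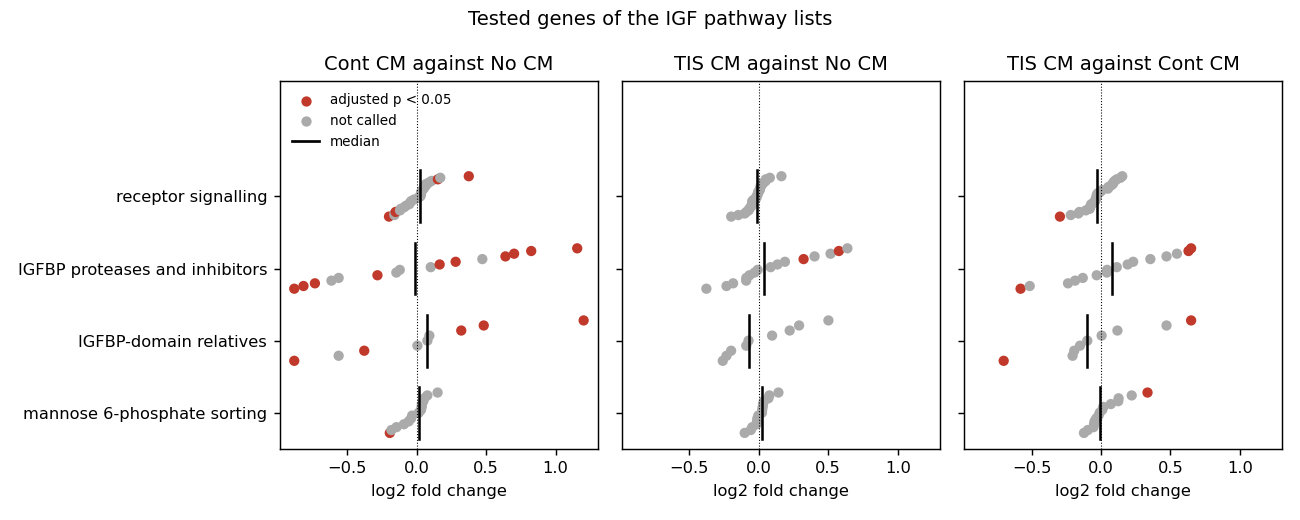
Log2 fold changes of the tested genes of 4 pathway lists in the 3 comparisons (1 point a gene; red, adjusted p under 0.05; bar, list median). The relatives with an IGFBP domain reach from -0.88 for HTRA3 to 1.2 for ESM1 in Cont CM against No CM.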

How the data were processed

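The authors deposited FPKM per gene and library, with gene length, position and biotype. The submitters' processing notes name build hg38, DESeq2 1.20.0, featureCounts 1.5.0-p3, HISAT2 2.0.5 and fastp, without roles. Identifiers matched GENCODE 29 (Ensembl 94). All values above 0 were whole multiples, within 0.01, of what 1 fragment is worth (0.0255 to 0.0303 FPKM on a 1 kb gene), which gave the fragments behind each value.

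Genes with a mean of at least 0.5 FPKM over the 9 libraries were fitted on log2(FPKM + 0.5) with limma 3.58.1 (R 4.3.3; trend, all 9 libraries, group means), with Benjamini-Hochberg adjustment over the 13912 tested genes. Calls needed an adjusted p under 0.05. Counts at an unadjusted p have no share of all genes beside them and are not read as results. Fold changes are on that scale, which understates those of low genes. Intervals are 95%. The fit was also run on simulated fragments, with the same spread in every group and changed genes only in TIS CM. That run does not test the calls in Cont CM, where the spread of IGFBP4 was larger than in the other groups. The members, lists and tests were chosen with earlier results of these data known. All 10 members are named; from each pathway list, up to 4 called genes per direction with the largest change; and, for the 3 tested members with the widest range, the 4 genes with the highest Pearson r. Some called list genes, counted in the list totals, are not reported here. The alternatives changed the pseudocount, filter, normalization, model, GC and length trend, or left out a library.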

Additional observations from a re-analysis of the deposited data

How the results depend on the processing

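In Cont CM against No CM, 2 members were called in the reported fit and in all 20 alternatives, and the count over all genes, 2272, was 1242 with only the 2 groups in the fit, 1461 with the replicate number as a block, and 1075 to 2770 with 1 library left out (highest without Cont CM replicate 1). In TIS CM against No CM, members called went from 0 to 1 (IGFBP6) with protein-coding genes only, with voom and with the GC and length trend removed, and were 0 to 1 with 1 library left out. All genes called, 119, became 46 without a filter, 210 with protein-coding genes only, 245 with voom, 331 with the 2 groups only, 4 with the block, and 9 to 365 with 1 library left out. In TIS CM against Cont CM, members called went from 1 (IGFBP4) to 0 without a filter, with the 2 groups only, with the block and with the trend removed, and were 0 to 1 with 1 library left out. All genes called, 623, became 207 without a filter, 995 with protein-coding genes only, 1085 with voom, 33 with the 2 groups only, 126 with the block, 173 with the trend removed, and 11 to 1084 with 1 library left out. The causes were not tested.

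Signs turned only for members that were not called in any alternative. IGF2R in Cont CM against No CM was -0.0008 with equal library sums, -0.014 with the trend removed and -0.023 to 0.064 with 1 library left out. IGFBP3 in Cont CM against No CM was -0.20 to 0.0082, and in TIS CM against Cont CM -0.13 to 0.079, with 1 library left out. IGF1R in TIS CM against No CM was 0.022 with the trend removed and -0.03 to 0.018 with 1 library left out.

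With equal library sums 20.9% of the genes called in TIS CM against No CM were higher, against 47.1% as reported, and 41.8% against 64.8% in TIS CM against Cont CM, where quantile normalization gave 53.2% and the block 75.4%. Deviations from the group means correlated between -0.187 and 0.084 for same-numbered libraries of different groups, and between -0.129 and 0.201 for the others. With 3 libraries a group these values do not settle whether the numbers pair the samples. The block ended the IGFBP4 call in TIS CM against Cont CM and no other member's call. IGFBP2 and IGFBP5, at 0 to 7 fragments per library, are too low for any comparison, and the level of IGF2 cannot be read from its overlapping rows. Of the list counts, 4 for receptor signalling in Cont CM against No CM became 2 with the 2 groups only and with the block. For proteases and inhibitors, 3 in TIS CM against Cont CM became 5 with voom or protein-coding genes only and 1 with the 2 groups only, and 2 in TIS CM against No CM became 6 with the 2 groups only.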

Other observations

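Among the Cont CM libraries, replicate 1 had the lowest value of all 9 libraries for IGFBP3, IGFBP4 and IGFBP7 and the highest for IGF1R, a pattern noticed after the values were seen. IGFBP6 went the other way, with replicate 1 the highest of the Cont CM libraries. The SD of IGFBP4 was 20.6% of its mean in Cont CM, against 6.41% in No CM and 6.20% in TIS CM. Without Cont CM replicate 1, Cont CM against No CM gave -0.54 for IGFBP4 (limma adjusted p = 0.00431), -0.66 for IGFBP6 (0.00287), -0.01 for IGFBP7 and 0.01 for IGFBP3, and TIS CM against Cont CM gave 0.42 for IGFBP4 (0.0272). What sets this library apart was not tested.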
